A study of Mus musculus with 12 samples.

Results

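Chemokines and their receptors were examined in brain myeloid cells of mice transplanted with gene-modified hematopoietic stem/progenitor cells. The members were chosen by name, as every gene whose symbol begins with Ccl, Cxcl, Ccr or Cxcr followed by a digit, together with Pf4, Ppbp, Cx3cl1, Cx3cr1, Xcl1 and Xcr1. This rule took 65 of the 31054 listed features and used no measured value. The 65 features carry 60 different symbols, because Ccl19, Ccl21a, Ccl21b, Ccl21c and Ccl27 each stand for 2 gene identifiers. A unique molecular identifier (UMI) was detected for 48 members in at least 1 treated library, for 1 more in a naive library only, and for 16 members in none of the 12 libraries.

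Single-cell RNA was measured in 12 libraries, each holding the cells of 1 sort. The 8 treated libraries came from 4 busulfan-conditioned C57BL/6J mice, of which a female and a male were dosed intravenously (i.v.) and a female and a male intracerebroventricularly (i.c.v.) with lineage-negative marrow cells of male donors transduced with a lentiviral vector coding for GFP. Cells of each brain that were CD45+ CD11b+ CX3CR1+ were sorted into GFP+ cells, the transplant-derived microglia-like cells (MLCs), and GFP- cells, mostly endogenous microglia, so each sort was measured in 4 libraries and each combination of sort and route in 2. All 4 mice also received unmodified total bone marrow i.v. after dosing, so the GFP- sort could hold marrow-derived cells without the vector, and the GFP+ sort could hold any transplant-derived cell that passed the gate. The 4 naive libraries, 1 each, were neuron, astrocyte and microglia sorts of untreated brain and a blood sample. The labels give ages of 22 to 28 weeks for the treated and 8 to 12 weeks for the naive mice, whereas the study places brain collection about a year after dosing, and the counts do not settle this.

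Chemokines are small secreted proteins that direct cell movement through G protein-coupled receptors, and CX3CL1 and CXCL16 are also made as membrane-bound forms. CC ligands mostly act through CCR receptors on monocytes, macrophages, dendritic cells and lymphocytes, CXC ligands through CXCR receptors on neutrophils and lymphocytes, and 1 receptor often binds several ligands. In the brain, microglia are known for high CX3CR1, the receptor of the neuronal ligand fractalkine, whereas CCR2 is known as the receptor that brings monocytes out of the marrow and into tissue.

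A barcode was kept as a cell if it had 200 genes or more and no more than 10% of its UMIs from mitochondrial genes. The GFP+ libraries held 2266 to 3536 cells at a median of 1058 to 3499 UMIs, and the GFP- libraries 2675 to 4555 cells at a median of 842 to 1034. At least 1 EGFP UMI was found in 4.21 to 10.7% of GFP+ cells and in at most 0.0245% of GFP- cells, and a pair of libraries shared at most 8 barcodes, and no pair more than 0.348% of the smaller library. Cells with at least 3 of 11 microglia markers made up 92.8 to 96.9% of GFP- and 53.7 to 70.9% of GFP+ cells. Cells with at least 3 markers of neutrophils, T or NK cells, B cells or dendritic cells were 4.28% and 4.90% of the GFP+ i.v. libraries, 0.153% and 0.283% of the GFP+ i.c.v. libraries and 0.198 to 0.758% of the GFP- libraries. The naive neuron sort went against its label, since 553 of its 575 cells carried at least 3 oligodendrocyte markers and 3 at least 3 neuron markers.

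Levels are CPM, the UMIs of a gene summed over the kept cells of a library and scaled by the total UMIs of those cells. Values of 4 libraries are given in the order i.v. female, i.v. male, i.c.v. female and i.c.v. male. Each transcript is counted about 1 time in this 3-prime assay whatever its length, but capture differs between genes, so the order of members by CPM is an order of captured molecules. A summed CPM cannot tell fewer cells with a transcript from fewer transcripts per cell, and shares of cells are therefore given after each cell had been thinned to 500 UMIs, a depth that every kept cell of the treated libraries reached. Differences between groups are log2 fold changes from edgeR on counts summed per library, with scaling by the trimmed mean of M values (TMM), and a member was called at a Benjamini-Hochberg adjusted p under 0.05 over all genes tested. The fold changes refer to the bulk of the genes: with library sizes alone the median over all genes of the GFP+ against GFP- difference moved to -0.27. The libraries of a group came from different mice, and with 2 mice per route the p-values rest on the spread among very few animals.

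The most captured ligands in the brain myeloid sorts were Ccl4, Ccl3, Cxcl2 and Ccl12, and Cx3cr1 was the most captured receptor. Ccl3 and Ccl4, related inflammatory CC ligands, lie next to each other at chr11:83647844-83649355 and chr11:83662584-83664683 (GRCm38) on opposite strands. Ccl4 was at 1058, 1443, 1554 and 1401 CPM in the GFP+ and 1603, 2364, 2685 and 2389 CPM in the GFP- libraries, and at 1656 CPM in the naive microglia sort. Ccl3, which binds CCR1, was at 635, 717, 927 and 1003 CPM in the GFP+ and 759, 995, 1178 and 1158 CPM in the GFP- libraries. Both ligands were thus among the most captured members in every treated library, and they were at 147 and 122 CPM in naive blood. They were nearly absent from the astrocyte and neuron sorts, where neither passed 0.416 CPM.

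Cxcl2, which recruits neutrophils through CXCR2, was at 794, 1006, 820.4 and 1088 CPM in the GFP+ and 335, 395, 1143 and 544 CPM in the GFP- libraries, with the GFP- i.c.v. female in the range of the GFP+ sort. Cxcl1, a ligand of the same receptor, was at 18.4, 69.5, 33.8 and 117 CPM in the GFP+ and 15.9, 33.3, 86.0 and 30.2 CPM in the GFP- libraries. Both neutrophil-attracting ligands overlapped between the sorts. Among ligands of CCR2, Ccl12 was at 542, 455, 338 and 683 CPM in the GFP+ and 401, 321, 553 and 382 CPM in the GFP- libraries. Ccl2 was at 183, 263, 188 and 205 CPM in the GFP+ and 125, 184, 228 and 185 CPM in the GFP- libraries. Ccl7 was at 75.6, 119, 40.4 and 107 CPM in the GFP+ and 57.9, 80.6, 94.4 and 134 CPM in the GFP- libraries. None of these 3 genes, which stand in 1 run with Ccl8 between positions 82035571 and 82116799 of chromosome 11, separated the sorts. Ccl8 was at 142, 63.9, 17.5 and 66.2 CPM in the GFP+ and 23.7, 61.3, 39.1 and 71.9 CPM in the GFP- libraries, and 33.1 to 91.6% of its UMIs lay in cells with at least 3 of 8 markers of CNS-associated macrophages (CAMs). Cxcl10, an interferon-induced ligand of CXCR3, was at 58.9, 304, 124 and 174 CPM in the GFP+ and 62.2, 118, 161 and 126 CPM in the GFP- libraries, and the GFP+ i.v. libraries held both its lowest and its highest value.

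**Figure D1:**
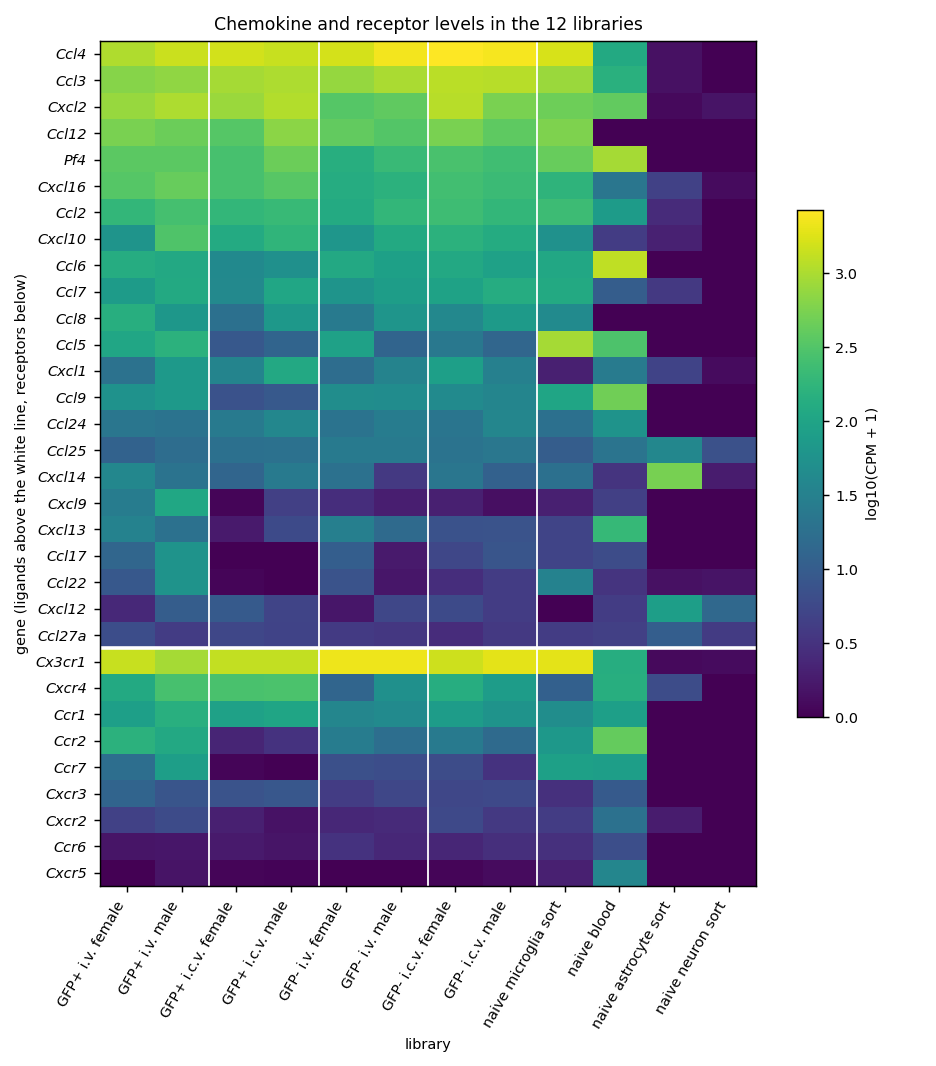
Heat map of the 32 members described one by one (rows, ligands above and receptors below the white line) in the 12 libraries (columns), colored by log10(CPM + 1). Ccl4, Ccl3 and Cx3cr1 were high in all 8 treated libraries and the naive microglia sort, and Ccr2, Ccr7, Ccl17 and Ccl22 stood out in the GFP+ i.v. columns against the GFP+ i.c.v. columns.

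MLCs and endogenous microglia differed in some receptors and ligands. Members were called higher at a share close to that of all genes tested, and lower at a smaller share. Among receptors, Cxcr4, Ccr1 and Cxcr3 were higher and Ccr6 lower in the GFP+ libraries, and the ligands Cxcl16, Pf4, Cxcl9 and Ccl27a were higher. Of the 65 members, 33 passed the filter on low counts, and 7 were called higher and 2 lower in GFP+ cells. That is 21.2% and 6.06% of the members tested, beside 16.6% and 15.9% of the 11756 genes tested, so the share called higher was close to the background and the share called lower below it. The median log2 fold change was 0.78 over the members tested and 0.01 over all genes tested.

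Cxcr4, the CXCL12 receptor that holds blood progenitors in the marrow, had the largest difference among the receptors called. It was at 121, 273, 280.2 and 285 CPM in the GFP+ and 12.1, 52.4, 135 and 78.4 CPM in the GFP- libraries, with means of 239.9 ± 79.2 and 69.4 ± 51.4 CPM (SD, n = 4 each). The GFP+ i.v. female lay far below the other 3 GFP+ libraries and below the GFP- i.c.v. female, so the sorts overlapped, although within each mouse the GFP+ library was the higher. The difference was called (log2 fold change 2.02 ± 0.59 (SE), adjusted p = 0.0293). It was not called when any of the 4 libraries from males was left out (highest adjusted p = 0.0885), and over all libraries left out in turn the log2 fold change stayed between 1.68 and 2.62. At 500 UMIs per cell, 5.47, 10.9, 10.9 and 12.0% of GFP+ and 0.598, 1.84, 4.91 and 2.91% of GFP- cells held a Cxcr4 UMI.

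Ccr1, a receptor of CCL3, CCL5, CCL6 and CCL9, was at 85.9, 143, 90.0 and 102 CPM in the GFP+ and 36.0, 43.1, 78.7 and 56.2 CPM in the GFP- libraries, and the sorts did not overlap (log2 fold change 1.24 ± 0.29 (SE), adjusted p = 0.0116). Cxcr3, the receptor of CXCL9 and CXCL10, was low, at 11.6, 6.99, 6.56 and 7.43 CPM in the GFP+ and 3.02, 4.44, 4.32 and 4.63 CPM in the GFP- libraries, and again did not overlap (log2 fold change 1.27 ± 0.25 (SE), adjusted p = 0.00648). Ccr6, the receptor of CCL20, stayed under 3 CPM in all treated libraries, at 0.545, 0.608, 0.792 and 0.550 CPM in the GFP+ and 2.21, 1.38, 1.36 and 1.93 CPM in the GFP- libraries, without overlap (log2 fold change -1.17 ± 0.30 (SE), adjusted p = 0.0186), and was not called with the mouse as a replicate block (adjusted p = 0.054) or without the GFP- i.v. female or the GFP- i.c.v. male (adjusted p = 0.0522 to 0.0625).

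Cxcl16, a membrane-bound ligand of CXCR6, was at 338, 427, 266 and 347 CPM in the GFP+ and 134, 160.4, 242 and 215 CPM in the GFP- libraries, which did not overlap (log2 fold change 1.16 ± 0.24 (SE), adjusted p = 0.00844). Pf4, a platelet chemokine that brain macrophages also express, was at 368, 370.3, 272 and 449 CPM in the GFP+ and 142, 210.1, 277 and 236 CPM in the GFP- libraries, and only the GFP+ i.c.v. female fell within the GFP- range (log2 fold change 1.03 ± 0.24 (SE), adjusted p = 0.0125). Ccl27a, a skin-associated ligand of CCR10, was at 5.51, 3.04, 4.41 and 3.94 CPM in the GFP+ and 2.82, 2.61, 1.73 and 2.70 CPM in the GFP- libraries without overlap (log2 fold change 1.08 ± 0.25 (SE), adjusted p = 0.0112). Its exons overlap Il11ra1 on the opposite strand and its sequence is close to that of the other Ccl27 genes, so its counts are uncertain. Cxcl9, the second interferon-induced ligand of CXCR3, was at 26.9, 111, 0.113 and 3.48 CPM in the GFP+ and 1.81, 0.919, 0.987 and 0.386 CPM in the GFP- libraries (log2 fold change 5.52 ± 1.56 (SE), adjusted p = 0.0253). The GFP+ i.c.v. female lay below all GFP- libraries, and Cxcl9 was not called without the GFP+ i.v. male, the GFP- i.v. female, the GFP- i.v. male, the GFP- i.c.v. female or the GFP- i.c.v. male (adjusted p = 0.0532 to 0.0759).

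**Figure D2:**
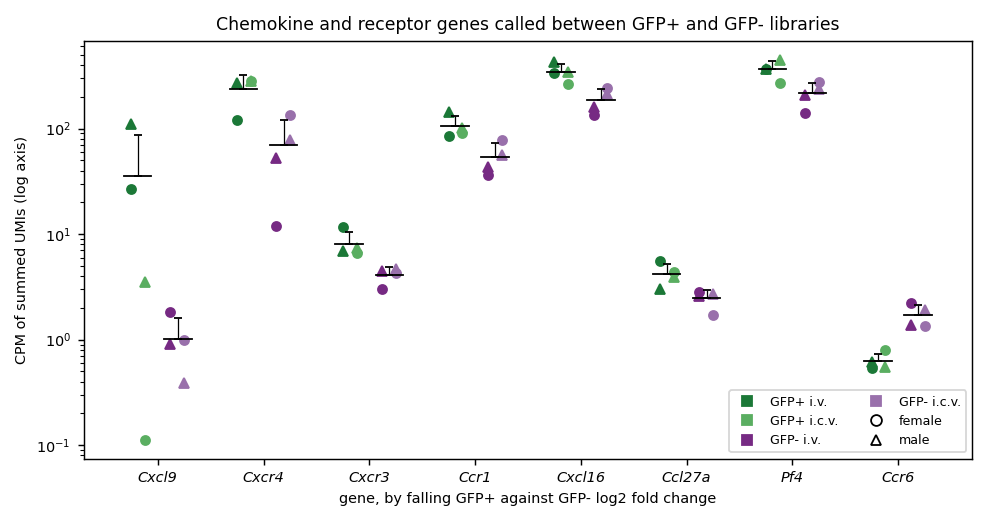
CPM of summed UMIs (log axis) for 8 members called between sorts, 1 point per library, with circles for female and triangles for male recipients. Lines are the means of 4 libraries and the bars above them 1 SD. Ccr6 was lower in all GFP+ libraries, and Cxcr4, Pf4 and Cxcl9 overlapped between the sorts.

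Within a route the sort comparison gave other members. In the i.v. mice alone 14 of 35 members tested were called higher and 1 lower in GFP+ cells (40% and 2.86%), beside 14.7% and 12.3% of the 12039 genes tested. In the i.c.v. mice alone 1 of 32 was called higher and 7 lower (3.12% and 21.9%), beside 2.39% and 6.31% of 11861 genes. Cxcr4 was called higher in both, at 2.98 (adjusted p = 0.0221) and 1.56 (adjusted p = 0.0225) on the log2 scale. Ccr2 was called higher in GFP+ cells of the i.v. mice, at 3.07 (adjusted p = 0.00167), and lower in those of the i.c.v. mice, at -3.32 (adjusted p = 0.0113), and Ccl9 likewise, at 0.84 (adjusted p = 0.0233) and -2.27 (adjusted p = 0.00525). Ccr1, Cxcl16 and Pf4 were called in the i.v. mice, at 1.91 (adjusted p = 0.00525), 1.76 (adjusted p = 0.00295) and 1.45 (adjusted p = 0.00608), and were at 0.67 (adjusted p = 0.0851), 0.59 (adjusted p = 0.0919) and 0.66 (adjusted p = 0.161) in the i.c.v. mice, the sole alternative in which these 3 were not called. Cxcl2 and Ccl12 were called higher in the i.v. mice, at 1.69 (adjusted p = 0.00308) and 0.84 (adjusted p = 0.0227). Cxcr3 was also not called in the i.c.v. mice alone (adjusted p = 0.0763). Ccl27a (highest adjusted p = 0.106) and Ccr6 were called in neither route alone. Each of these fits rests on 2 mice. Whether the differences depended on route is tested after the comparison of routes.

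CAM markers moved with the sort. Summed over 8 markers they were at 1679 to 2151 CPM in the GFP+ and 716 to 1284 CPM in the GFP- libraries, and cells with at least 3 of them made up 30.9 to 39.98% and 3.48 to 10.8% of cells. The summed 11 microglia markers were at 4835 to 9663 and 10562 to 15311 CPM. All 8 CAM and 11 microglia markers were detected in every treated library. The part of these markers in the sort differences was not tested, but levels within cells defined by them are given. These cells held 49.4 to 63.3% and 9.08 to 30.9% of UMIs, above their shares of cells, so they were the deeper cells. Pf4 was at 383 to 623 CPM within such cells of the GFP+ libraries and at 724 to 1190.1 CPM within those of the GFP- libraries, without overlap and in the direction opposite to the library sums, and in cells with fewer markers it was at 96.0 to 161 and 21.8 to 87.1 CPM. Ccr1 was at 76.4 to 139 and 114 to 141 CPM within cells with at least 3 CAM markers, which overlapped, and at 68.6 to 108 and 17.2 to 43.3 CPM in the other cells, which did not. Cxcr4 was at 162 to 355 and 72.8 to 227 CPM within the CAM-marker cells, and Cxcl16 at 294 to 385 and 282 to 349 CPM. Outside them Cxcl16 was at 222 to 475 and 119 to 199 CPM. Cells with blood or monocyte markers are left out of these values. The study named Mrc1, Ms4a7 and Stab1, all on the CAM list, as enriched in its mostly GFP+ clusters. Whether CAM-marker cells of the GFP+ and GFP- libraries are the same kind of cell was not tested.

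With all UMIs summed and TMM scaling, Ccl4 and Cx3cr1 were not called. Both were called lower in GFP+ cells when every cell counted alike, and also with library sizes alone. Ccl4 had a log2 fold change of -0.46 ± 0.19 (SE, adjusted p = 0.0983). When every cell was thinned to 500 UMIs before summing, so that no deep cell outweighed another, it was called lower in GFP+ cells at -1.41 ± 0.26 (SE, adjusted p = 0.00241), and with library sizes alone it was called at -0.73 (adjusted p = 0.0122). A Ccl4 UMI was held by 12.5, 16.3, 23.1 and 24.8% of GFP+ cells and by 32.5, 57.5, 60.5 and 58.9% of GFP- cells at 500 UMIs, with means of 19.2 ± 5.76% and 52.4 ± 13.3% (SD, n = 4 each). The sorts did not overlap in this share. At 1000 UMIs the means were 26.6% and 56.7%, and at the cells' own depth 34.8% and 70.0%. In the naive astrocyte sort, whose cells should lack the gene, the share was 0 of 1146 cells, which allows up to 0.262%, at a median of 3395 UMIs before thinning. Free RNA within the treated libraries was not measured.

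Cx3cr1 was at 1365, 929, 1295 and 1307 CPM in the GFP+ and 2168, 2219.8, 1488 and 1963 CPM in the GFP- libraries, which did not overlap, and the sort selected for its protein in both. Its log2 fold change was -0.39 ± 0.15 (SE, adjusted p = 0.0766) in the test across all genes, -0.62 (adjusted p = 0.0341) with every cell thinned to 500 UMIs, and -0.68 (adjusted p = 0.0126) with library sizes alone. At 500 UMIs, 43.7, 35.2, 41.9 and 44.5% of GFP+ and 57.8, 65.0, 52.5 and 62.1% of GFP- cells held a Cx3cr1 UMI, and 61.4% of the 482 naive microglia-sort cells that reached this depth. Ccl3 had a log2 fold change of -0.05 ± 0.19 (SE), and its share of cells was 13.7, 16.3, 19.5 and 22.2% in GFP+ and 20.1, 32.5, 37.6 and 36.5% in GFP- libraries, where the GFP+ i.c.v. male and the GFP- i.v. female overlapped.

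**Figure D3:**
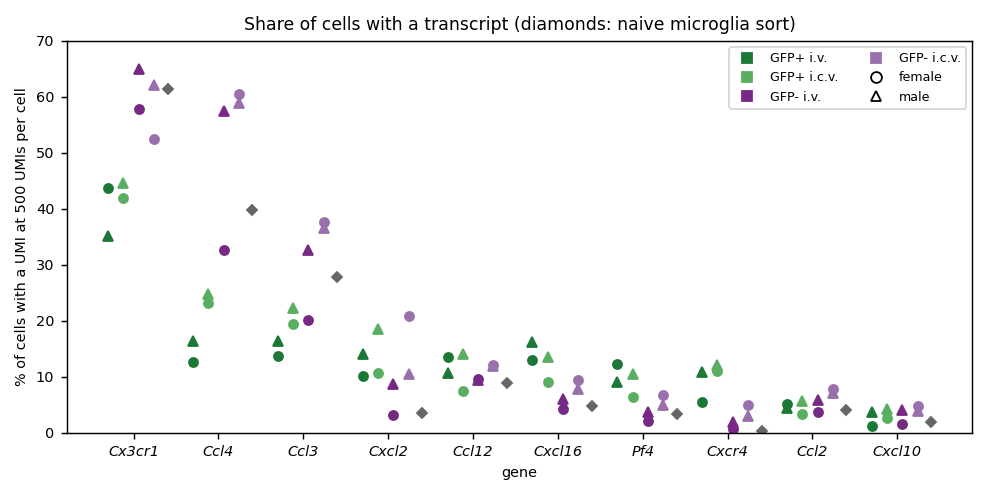
Share of cells with at least 1 UMI of a member after thinning each cell to 500 UMIs, in percent, for 10 of the members with the highest mean share over the treated libraries. Each point is 1 library, circles are female and triangles male recipients, and diamonds mark the 482 cells of the naive microglia sort with this depth. Cx3cr1 and Ccl4 were seen in a smaller share of cells in all 4 GFP+ libraries than in any GFP- library.

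Of 38 other genes that act with chemokine receptors (G proteins, kinases, arrestins, regulators of signaling, scavenging receptors and ligand-cleaving enzymes), 34 were tested between sorts, and 5 were called higher and 10 lower in GFP+ cells, with a median log2 fold change of 0.02. The largest of those called higher were Rgs18 (1.90 ± 0.33, SE), Grk6 (0.87 ± 0.19) and Rgs1 (0.72 ± 0.19), which code for regulators that end G protein signaling or phosphorylate the active receptor. The largest of those called lower were Plcb2 (-0.89 ± 0.20), Elmo1 (-0.89 ± 0.17) and Pik3r5 (-0.84 ± 0.12), a phospholipase, a partner of the Rac activator DOCK2 and a subunit of phosphoinositide 3-kinase gamma. The shares called were 14.7% and 29.4% of those tested, beside 16.6% and 15.9% of all genes tested.

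Route of dosing separated the GFP+ libraries by a set of receptors and ligands that all lay in 1 direction. For some of these members most UMIs lay in cells with blood cell markers, as given below. The study reported GFP+ chimerism of blood and marrow in i.v.-dosed mice but not in mice dosed i.c.v. alone. By the study's account those values came from another cohort, collected earlier after dosing, and their part in these route differences was not tested. In GFP+ cells of i.v.-dosed mice, the receptors Ccr2, Ccr7 and Cxcr2 and the ligands Ccl17, Ccl22, Ccl9, Ccl6, Ccl5, Cxcl9 and Cxcl13 were higher than in GFP+ cells of i.c.v.-dosed mice. Of 37 members tested, 10 were called higher and 0 lower (12 had an unadjusted p under 0.05, and DESeq2 called 0 lower). The share called higher was 27.0% of the members tested, beside 2.56% of the 12540 genes tested, and 0.215% of all genes were called lower. The median log2 fold change was 0.36 over the members tested, the same with Ccl17 set at its bound below, and 0.00 over all genes.

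Ccr2, the monocyte receptor, was at 157, 117, 1.25 and 2.20 CPM in the GFP+ libraries, with both i.v. values far above both i.c.v. values. Summed over the libraries of a route, 3743 Ccr2 UMIs were counted after i.v. and 35 after i.c.v. dosing, a ratio of 80.0 in CPM (exact 95% counting interval 57.4 to 115), and the difference was called (log2 fold change 6.38 ± 0.42 (SE), adjusted p = 0.000903). The GFP- libraries, at 26.2, 16.4, 24.9 and 14.5 CPM, lay between the groups. Ccl9, a mouse ligand of CCR1, was at 55.2, 71.6, 6.34 and 8.07 CPM in the GFP+ and 47.5, 44.9, 42.8 and 35.6 CPM in the GFP- libraries (log2 fold change 3.23 ± 0.21 (SE), adjusted p = 0.000903). For Ccl9 the GFP+ i.c.v. libraries were the ones that stood apart, below every other treated library. Ccl6, a relative of Ccl9 at the neighboring position chr11:83587882-83593087, was at 131, 116, 41.4 and 51.4 CPM in the GFP+ and 118, 86.9, 118 and 90.3 CPM in the GFP- libraries (log2 fold change 1.51 ± 0.22 (SE), adjusted p = 0.0101), again with the GFP+ i.c.v. libraries lowest, and was not called without the GFP+ i.c.v. female (adjusted p = 0.116). The calls of Ccr2 and Ccl9 were made in all 19 alternatives.

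Ccr7, which guides mature dendritic cells to lymph nodes, was at 16.2, 83.3, 0.113 and 0 CPM in the GFP+ and 5.83, 5.52, 5.18 and 2.19 CPM in the GFP- libraries (route in GFP+, adjusted p = 0.00762). With 1090 UMIs after i.v. and 1 after i.c.v. dosing, the ratio was 816 with an exact 95% counting interval of 146 to 32240.2. Ccl17 and Ccl22, the ligands of CCR4, stand close together at chr8:94810453-94812036 and chr8:94745590-94751699 on either side of Cx3cl1. Ccl17 was at 12.7, 57.1, 0 and 0 CPM in the GFP+ and 9.66, 0.766, 4.32 and 6.94 CPM in the GFP- libraries, and was at least 193-fold higher after i.v. than after i.c.v. dosing against a floor of 3 UMIs over the 2 i.c.v. libraries (adjusted p = 0.0339). Ccl22 was at 7.87, 57.2, 0.113 and 0 CPM in the GFP+ and 6.64, 0.613, 1.85 and 3.09 CPM in the GFP- libraries, a ratio in GFP+ cells of 520.0 with an interval of 93.0 to 20567 (adjusted p = 0.0318). All 3 genes were several times higher in the i.v. male than in the i.v. female, and without the i.v. male Ccr7 was still called (adjusted p = 0.0083). Ccl17 was not called without the GFP+ i.v. male, the GFP+ i.c.v. female, the GFP+ i.c.v. male, the GFP- i.c.v. female or the GFP- i.c.v. male (adjusted p = 0.0574 to 0.176), Ccl22 without the GFP+ i.v. male, the GFP+ i.c.v. female, the GFP+ i.c.v. male, the GFP- i.c.v. female or the GFP- i.c.v. male (adjusted p = 0.0518 to 0.235) and Ccr7 without the GFP+ i.c.v. female or the GFP+ i.c.v. male (adjusted p = 0.0648 to 0.0809). Ccr4, the receptor of CCL17 and CCL22, had no UMI in any library.

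Cxcl9 was at 26.9 and 111 CPM after i.v. dosing against 0.113 and 3.48 CPM after i.c.v. dosing (log2 fold change 5.25 ± 0.91 (SE), adjusted p = 0.0218). In the i.v. male its 1094 UMIs came from 25 cells, and a single cell held 505 of them. The call was not made without the GFP+ i.v. male or the GFP+ i.c.v. female (adjusted p = 0.0574 to 0.119). Cxcl13, which draws B cells through CXCR5, was at 31.9, 17.8, 0.792 and 4.86 CPM in the GFP+ and 29.2, 14.4, 6.29 and 6.43 CPM in the GFP- libraries (log2 fold change 3.18 ± 0.62 (SE), adjusted p = 0.0358). The GFP- libraries of the same mice lay in the same direction (log2 fold change 1.65 ± 0.60 (SE), not called). Whether the Cxcl13 sort difference depended on route was not called either (1.52 ± 0.86, edgeR interaction adjusted p = 0.406). Ccl5, made by T and NK cells among others, was at 107, 157, 7.81 and 11.6 CPM in the GFP+ and 91.7, 11.6, 22.6 and 12.6 CPM in the GFP- libraries (log2 fold change 3.86 ± 0.81 (SE), adjusted p = 0.0452), and at least 91.4% of its UMIs in each treated library came from 1% of the cells. Cxcr2, the neutrophil receptor, was at 3.57, 5.07, 1.02 and 0.459 CPM in the GFP+ and 1.41, 1.53, 4.69 and 2.70 CPM in the GFP- libraries (log2 fold change 2.66 ± 0.49 (SE), adjusted p = 0.027). In the GFP+ i.v. libraries 45 and 32 cells held a Cxcl13 UMI and 17 and 26 a Cxcr2 UMI, whereas Ccr2 was spread over 420 and 220 cells. Cxcl13 was not called without the GFP+ i.v. female, the GFP+ i.c.v. female, the GFP- i.c.v. female or the GFP- i.c.v. male (adjusted p = 0.0635 to 0.13), Ccl5 without the GFP+ i.v. female, the GFP+ i.v. male, the GFP+ i.c.v. female, the GFP+ i.c.v. male, the GFP- i.c.v. female or the GFP- i.c.v. male (adjusted p = 0.0727 to 0.361) and Cxcr2 without the GFP+ i.v. male, the GFP+ i.c.v. female or the GFP+ i.c.v. male (adjusted p = 0.0806 to 0.153).

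**Figure D4:**
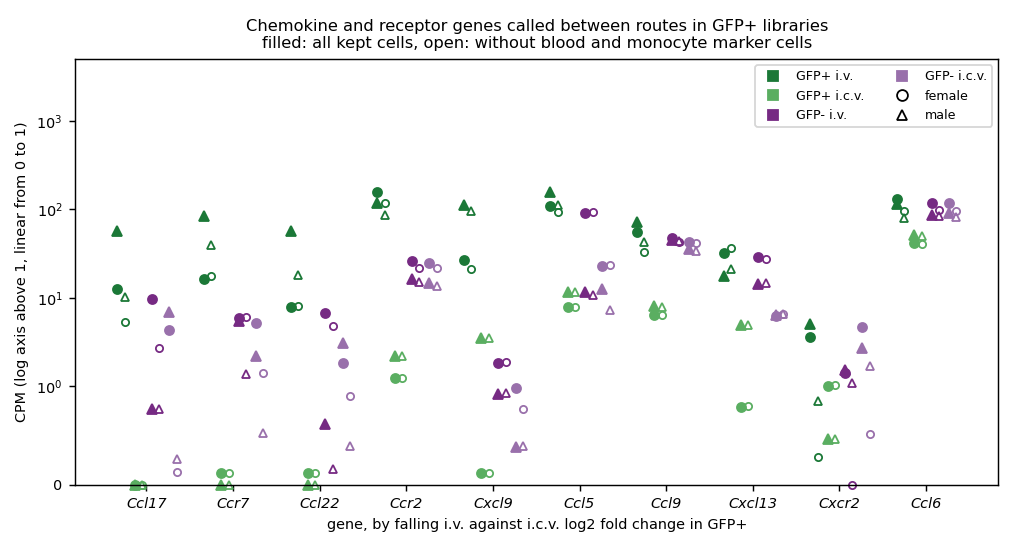
CPM per library for the 10 members called between routes in GFP+ cells, on an axis that is linear from 0 to 1 and logarithmic above. Filled points use all kept cells and open points leave out cells with at least 3 markers of neutrophils, T or NK, B or dendritic cells or monocytes, and circles are female and triangles male recipients. Ccr2 and Ccl9 stayed higher in GFP+ i.v. than in GFP+ i.c.v. cells with and without these cells, and Cxcr2 did not.

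Markers of dendritic cells moved with these genes. The summed 7 dendritic markers were at 289 and 394 CPM in the GFP+ i.v. libraries, 77.6 and 94.4 CPM in the GFP+ i.c.v. libraries and 108 to 146 CPM in the GFP- libraries, and all 7 were detected in the 4 GFP+ libraries. Cells with at least 3 of them numbered 118 and 80 after i.v. and 4 and 6 after i.c.v. dosing. The i.v. cells with dendritic markers held 9.96% and 13.7% of all UMIs of their libraries. They held 63.8% and 84.9% of the Ccl17 UMIs. For Ccl22 the shares were 11.5% and 73.8%, and for Ccr7 5.60% and 59.4%. Ccl22 and Ccr7 thus lay mostly in cells with dendritic markers in the male and mostly outside them in the female, where 12 cells held all 268 Ccr7 UMIs. For Ccr2 the shares were 26.8% and 31.7%, and for Ccl9 32.8% and 45.8%. Of the Cxcr2 UMIs, 93.2% and 86.0% lay in the 14 and 25 cells with at least 3 neutrophil markers, of which the GFP+ i.c.v. libraries held 0, with S100a8, S100a9 and Retnlg at 0 UMIs there. Summed T or NK markers were at 14.8 and 25.7 CPM after i.v. and 0.453 and 0.275 CPM after i.c.v. dosing, where Trbc2, Nkg7, Ncr1 and Gzma were at 0. Cd3e and Cd3g were at 0 there and in the i.v. male. In the i.v. libraries, cells with at least 3 T or NK markers held 20% and 16.5% of the Ccl5 UMIs. Summed monocyte markers were at 295 and 225 CPM after i.v. and 58.6 and 137 CPM after i.c.v. dosing.

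Without all cells that carried at least 3 blood or monocyte markers, Ccr2 was at 117 and 86.4 CPM after i.v. and 1.25 and 2.22 CPM after i.c.v. dosing, and Ccl9 at 32.5 and 42.6 against 6.36 and 7.95 CPM. Ccr7 was at 17.5 and 39.96 against 0.114 and 0 CPM, Ccl22 at 7.96 and 18.0 against 0.114 and 0 CPM and Ccl17 at 5.26 and 10.3 against 0 and 0 CPM. The calls of these 5 members and of Cxcl13 were made in this fit too. Cxcr2 was at 0.277 and 0.850 against 1.02 and 0.462 CPM, so the i.v. values were no longer the higher, and it did not pass the filter on low counts there. Ccl6 at 95.6 and 79.1 against 40.9 and 50.3 CPM, Ccl5 at 93.3 and 112 against 7.83 and 11.7 CPM and Cxcl9 at 21.4 and 95.8 against 0.114 and 3.51 CPM did not reach the threshold (adjusted p = 0.0539, 0.174 and 0.0518). Cells with fewer than 3 such markers remained in these sums. Within the remaining cells of the GFP+ i.v. libraries, Ccr2 was at 209.8 and 168 CPM where fewer than 3 CAM markers were seen and at 47.1 and 26.8 CPM where at least 3 were. In the same split Ccl9 was at 52.8 and 86.3 against 17.3 and 10.9 CPM. Both genes were therefore several times higher in GFP+ i.v. cells that carried few CAM markers.

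**Figure D5:**
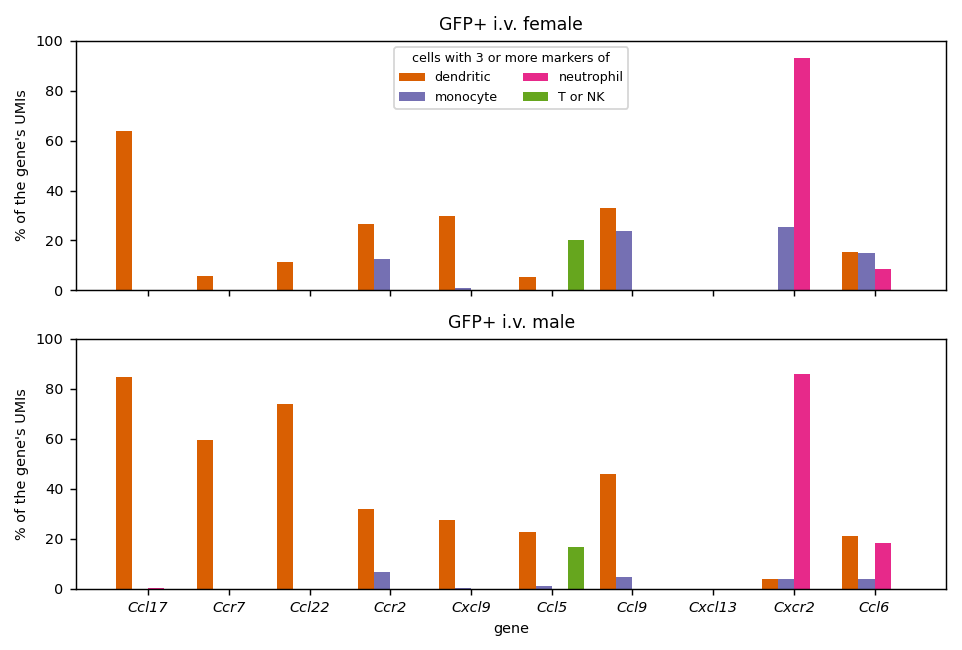
Share of each member's UMIs, in percent, found in cells with at least 3 markers of dendritic cells, monocytes, neutrophils, or T or NK cells, in the GFP+ i.v. female (top) and male (bottom). A cell can carry markers of more than 1 list, so the bars of a gene need not add up. Ccl17 lay mostly in dendritic-marker and Cxcr2 in neutrophil-marker cells in both mice, and Ccl22 and Ccr7 did so only in the male.

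Promoters are shown for 5 members called between routes in GFP+ cells. They had the largest fitted differences among the called members for which RefSeq gives a window. All were higher in the GFP+ i.v. than in the GFP+ i.c.v. libraries. Between the GFP+ i.v. libraries, Ccr2 was higher in the female and the other members shown were higher in the male. Each window runs from 250 bases before to 50 after a start site on GRCm38.p6, 5′ to 3′ along the gene's strand, and capitals mark matches, on either strand, to the AP-1 motif TGANTCA, the interferon-gamma activated site TTCNNNGAA, the interferon-stimulated response element (2 copies of GAAA with 2 bases between), the PU.1 motif GAGGAAGT, the TATA box TATAAA and the kappa-B consensus. The windows are chr8:94810203-94810502 (plus strand) for Ccl17, chr8:94745434-94745733 (plus strand) for Ccl22, chr9:124101933-124102232 (plus strand) for Ccr2, chr5:92328030-92328329 (minus strand) for Cxcl9 and chr11:83578587-83578886 (minus strand) for Ccl9.
Ccl17: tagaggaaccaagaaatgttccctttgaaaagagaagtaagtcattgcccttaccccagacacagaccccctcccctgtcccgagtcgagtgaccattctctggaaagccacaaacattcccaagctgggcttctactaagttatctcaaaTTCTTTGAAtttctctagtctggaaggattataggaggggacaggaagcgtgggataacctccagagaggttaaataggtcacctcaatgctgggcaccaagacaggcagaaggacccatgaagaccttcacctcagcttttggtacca
Ccl22: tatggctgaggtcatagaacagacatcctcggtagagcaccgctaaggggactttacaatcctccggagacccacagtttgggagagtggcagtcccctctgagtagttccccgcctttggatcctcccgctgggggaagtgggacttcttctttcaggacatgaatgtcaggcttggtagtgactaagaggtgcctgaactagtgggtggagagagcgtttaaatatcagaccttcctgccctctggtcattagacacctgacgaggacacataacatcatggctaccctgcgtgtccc
Ccr2: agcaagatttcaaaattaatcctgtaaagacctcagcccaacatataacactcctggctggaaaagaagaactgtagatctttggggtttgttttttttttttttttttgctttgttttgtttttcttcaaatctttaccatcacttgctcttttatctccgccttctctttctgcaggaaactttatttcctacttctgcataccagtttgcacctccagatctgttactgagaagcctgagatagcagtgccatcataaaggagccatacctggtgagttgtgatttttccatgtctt
Cxcl9: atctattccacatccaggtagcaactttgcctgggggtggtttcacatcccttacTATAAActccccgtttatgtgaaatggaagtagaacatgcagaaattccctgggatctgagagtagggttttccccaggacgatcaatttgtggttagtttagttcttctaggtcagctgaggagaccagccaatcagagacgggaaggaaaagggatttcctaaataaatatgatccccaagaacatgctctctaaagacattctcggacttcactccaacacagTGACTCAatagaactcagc
Ccl9: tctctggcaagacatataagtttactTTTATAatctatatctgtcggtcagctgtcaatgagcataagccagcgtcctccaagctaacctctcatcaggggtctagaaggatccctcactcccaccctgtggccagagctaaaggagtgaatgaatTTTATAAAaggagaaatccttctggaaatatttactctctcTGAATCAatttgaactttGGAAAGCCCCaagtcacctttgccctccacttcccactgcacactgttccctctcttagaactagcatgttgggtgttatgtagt
Ccl17 held TTCNNNGAA 99 bases before its start, Cxcl9 a TATA box 195 bases before and an AP-1 motif 31 bases after, and Ccl9 an AP-1 motif 53 and a kappa-B match 35 bases before its start, besides 3 TATA boxes of which a pair overlapped. None of the searched letters occurred in the Ccl22 and Ccr2 windows. No motif was common to the 5 windows. Over the 51 windows that RefSeq gives for 44 of the 60 member symbols, AP-1 was found in 21.6%, the kappa-B consensus in 21.6% and the TATA box in 27.5%, beside 7.81%, 8.46% and 13.6% of all 32851 windows. The shares for TTCNNNGAA, the interferon-stimulated response element and GAGGAAGT were 7.84%, 5.88% and 3.92%, beside 8.3%, 3.44% and 3.2%.

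GFP- cells of the same mice showed no called member between routes. None of 37 members tested was called by edgeR (9 had an unadjusted p under 0.05), nor was any of all 12540 genes (0% called, 1063 with an unadjusted p under 0.05), and DESeq2 called 68 genes, of which 1 was a member. That member was Cxcl2, lower after i.v. dosing (log2 fold change -1.34, DESeq2 adjusted p = 0.00165). The median log2 fold change was -0.47 over the members tested and 0.00 over all genes. Cxcr4 had -1.83 ± 0.61 and Cxcl2 -1.33 ± 0.34 (log2 fold change and SE, not called), and both were lowest in the GFP- i.v. female.

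Whether the sort difference depended on route was tested as an interaction, in which a positive value means that GFP+ exceeded GFP- by more after i.v. than after i.c.v. dosing. Of 37 members tested, 5 were called, all positive, 13.5% of those tested beside 1.8% of all genes. They were Ccr2 (6.39 ± 0.54 on the log2 scale, SE, adjusted p = 0.00673), Ccl9 (3.11 ± 0.29, adjusted p = 0.00673), Ccl6 (1.65 ± 0.31, adjusted p = 0.0391), Cxcr2 (4.10 ± 0.69, adjusted p = 0.0268) and Ccr7 (adjusted p = 0.0472). Ccr2 was higher in GFP+ than in GFP- libraries of both i.v. mice and lower in both i.c.v. mice. Cxcr2 went the same way, and so did the summed 9 neutrophil markers. These were at 1636, 3275, 0.792 and 7.34 CPM in the GFP+ and 260, 60.1, 5976 and 985 CPM in the GFP- libraries. Their part in the Cxcr2 interaction was not tested. Ccl9 was higher in GFP+ cells of both i.v. mice, and the larger gap between the sorts was in the i.c.v. mice. Ccr2 and Ccl9 were called in all 18 alternatives, whereas Ccl6 and Ccr7 were not called without the cells that carry blood markers and Cxcr2 did not pass the filter there. Ccl6 was not called without the GFP+ i.v. female, the GFP+ i.v. male, the GFP+ i.c.v. female, the GFP+ i.c.v. male, the GFP- i.v. female, the GFP- i.v. male or the GFP- i.c.v. female (adjusted p = 0.0513 to 0.162), Ccr7 without the GFP+ i.c.v. female, the GFP+ i.c.v. male, the GFP- i.v. female, the GFP- i.v. male, the GFP- i.c.v. female or the GFP- i.c.v. male (adjusted p = 0.0561 to 0.274) and Cxcr2 without the GFP+ i.v. male, the GFP+ i.c.v. female, the GFP+ i.c.v. male, the GFP- i.v. female, the GFP- i.v. male or the GFP- i.c.v. female (adjusted p = 0.0643 to 0.126). With the mouse as a replicate block, Cxcl16 (1.18, adjusted p = 0.0325) and Ccl7 (1.45, adjusted p = 0.0423) were called as well. This test and the test of route in GFP+ cells share the same GFP+ libraries.

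Among the 38 pathway genes, 34 were tested for route in GFP+ cells, and 4 were called higher and 0 lower after i.v. dosing, 11.8% and 0% of those tested beside 2.56% and 0.215% of all genes. The largest were Dpp4 (7.21 ± 0.52, log2 fold change and SE), a surface protease that trims several chemokines, the kinase gene Fgr (3.86 ± 0.56) and Tiam1 (2.999 ± 0.42), a Rac activator. Dpp4 had 0 UMIs in the GFP+ i.c.v. female, so its fitted values here and in the interaction below depend on the prior count. In GFP- cells 0 of 34 were called by edgeR (4 at an unadjusted p under 0.05). The interaction was called positive for 3 of 34 (8.82%, beside 1.8% of all genes), Dpp4 (7.27 ± 0.74), Fgr (4.12 ± 0.76) and Rac2 (1.13 ± 0.17).

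The naive libraries, 1 of each kind and without a test, placed 27 members at 20 CPM or more in at least 1 of them. In the astrocyte sort the homeostatic chemokine Cxcl14 stood at 535 CPM (exact 95% counting interval 515 to 556) and Cxcl12, the ligand of CXCR4, at 83.9 CPM (exact 95% counting interval 75.9 to 92.5). Cxcl14 was at 37.9, 19.1, 12.3 and 25.2 CPM in the GFP+ and 18.1, 2.76, 21.2 and 10.7 CPM in the GFP- libraries, and Cxcl12 at 1.45, 9.12, 8.26 and 4.03 CPM in the GFP+ and 0.604, 4.29, 4.81 and 3.09 CPM in the GFP- libraries. Cxcl12 was called higher in GFP+ cells only with the mouse as a replicate block (1.09, adjusted p = 0.0267). Summed astrocyte markers were at 32.3 to 74.4 CPM in GFP+ and 125 to 168 CPM in GFP- libraries, and their part in these levels was not tested. Ccl25, the ligand of CCR9, was at 38.1 CPM in the astrocyte sort and at 10.8, 15.9, 17.3 and 18.2 CPM in the GFP+ and 24.5, 23.8, 19.1 and 21.7 CPM in the GFP- libraries.

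Several members were high in naive blood. Ccl6 was at 1249 CPM (exact 95% counting interval 1207 to 1293), Pf4 at 940.0 CPM (exact 95% counting interval 903 to 978), Ccl9 at 477 CPM (exact 95% counting interval 451 to 504) and Ccr2 at 418 CPM (exact 95% counting interval 394 to 444). In the 96 blood cells not marked as monocytes, neutrophils, T or NK, B or dendritic cells, these 4 members were at 1707, 2326, 662 and 271 CPM. Which blood cells held them was not tested. Cxcr5, the B-cell receptor of CXCL13, was at 36.5 CPM in blood and at 0, 0.507, 0.113 and 0.0917 CPM in the GFP+ and 0, 0, 0.123 and 0.257 CPM in the GFP- libraries, and Cxcl13 was at 199.9 CPM. Ccl24, a ligand of CCR3, was at 56.3 CPM in blood and at 20.9, 18.9, 24.4 and 37.5 CPM in the GFP+ and 19.1, 26.8, 20.5 and 36.1 CPM in the GFP- libraries, 46.3 to 87.7% of it in CAM-marker cells. In the naive microglia sort Ccl5 was at 937 CPM (exact 95% counting interval 878 to 999.6), far above the treated libraries, but 17 of its 1274 cells held all of it and 99.6% lay in 1% of cells. Ccr7 at 87.0 CPM and Ccl22 at 32.4 CPM there came from 3 and 2 cells. Cxcr4 was at 10.1 CPM in the naive microglia sort, close to the 12.1 CPM of the GFP- i.v. female and below all other treated libraries. Ccr1, Cxcl16 and Pf4 were at 47.6, 169 and 433 CPM in this sort, so Ccr1 and Cxcl16 lay within the GFP- range and Pf4 near the highest GFP+ library. By share of cells, however, Pf4 lay within the GFP- range. At 500 UMIs per cell, 3.32% of naive microglia-sort, 2.06 to 6.66% of GFP- and 6.33 to 12.2% of GFP+ cells held a Pf4 UMI. Cx3cr1 was at 1932 CPM, Cxcl2 at 465 CPM and Ccr2 at 66.8 CPM.

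The remaining 32 members were at or near the limit of detection. UMIs were found for 16 of them, none above 3.02 CPM in a treated or 11.8 CPM in a naive library. These were the receptors Cxcr1, Cxcr6, Ccr3, Ccr9, Ccr10, Xcr1 and Ccr1l1 and the ligands Xcl1, Cxcl3, Cxcl5, Cxcl17, Cx3cl1, Ppbp, Ccl11, Ccl28 and 1 identifier of Ccl19. Fractalkine, Cx3cl1, was thus at most at 2.33 CPM in the treated and 5.06 CPM in the naive libraries, beside the high level of its receptor. No UMI was counted for Ccl1, Ccl20, Ccl26, Ccl27b, Cxcl15, Ccr4, Ccr8, the other identifier of Ccl19 or any identifier of Ccl21a, Ccl21b, Ccl21c and Ccl27, which in a GFP+ library allows at most 0.340 CPM for 3 UMIs. The copies of these genes are close to identical in sequence, and reads that match several of them may not have been counted, so a count of 0 says little about the copies. Of the 58 members with a position in the annotation used, 16 overlap another gene and 1, Ccr9, shares exon bases with a gene on its own strand.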

How the data were processed

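The authors deposited whole-number UMI counts per gene and cell barcode, made with Cell Ranger 3.1.0 on mm10, per the file headers and the submitters' processing notes, without normalization. Cells had 200 genes or more and no more than 10% mitochondrial UMIs, and no doublet caller was run. Counts were summed per library and tested with edgeR 4.0.16 (R 4.3.3, TMM, filterByExpr, two-sided quasi-likelihood F tests). Sorts were compared between 4 and 4 libraries and routes between 2 and 2 in fits to all 8. The fits were also run on simulated data. There the libraries were independent and every gene had the same spread, which does not cover libraries that share a mouse. DESeq2 1.42.0, other filters, scalings, cells, covariates and left-out libraries were the alternatives, 1 of them (library sizes alone) added after the data were seen. GFP+ and GFP- libraries of a mouse share an animal, and their deviations from the sort means correlated at 0.205, -0.275, -0.331, 0.013 over 11756 genes. Described one by one are members called in any test, the 15 with the highest mean CPM over treated libraries, and those at 20 CPM or more in a naive library. Of the pathway list, at most 3 called genes per direction are named. Intervals (SciPy 1.17.1) are exact and cover counting error only. Positions are from GENCODE vM21, promoters from RefSeq. Results for 1 member are not reported here. Members and lists were chosen with earlier results of these data known.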

Additional observations from a re-analysis of the deposited data

Results flagged for a closer look

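Among 66 sets of 4 libraries examined (33 members in 2 sorts), the highest or lowest library stood apart from the other 3 in 5, by a gap past the 95% critical value of Dixon's ratio, where chance marks about 1 in 20. Cxcr4 in the GFP+ i.v. female was 121 CPM, below the 273 to 285 CPM of the other GFP+ libraries. Cxcr3 in the same library was 11.6 CPM, above 6.56 to 7.43 CPM. That library also had the highest median depth, 3499 UMIs per cell. Ccl22 in the GFP+ i.v. male was 57.2 CPM, above 0 to 7.87 CPM, and Cx3cr1 there was 929 CPM, below 1295 to 1365 CPM. That library had the lowest share of cells with at least 3 microglia markers. Ccl5 in the GFP- i.v. female was 91.7 CPM, above 11.6 to 22.6 CPM, and a single cell held 346 of its 456 UMIs.

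For 5 members the GFP+ against GFP- difference itself differed between routes in the edgeR interaction test. On the log2 scale it was larger after i.v. than after i.c.v. dosing by 6.39 for Ccr2, 3.11 for Ccl9, 4.10 for Cxcr2, 1.65 for Ccl6 and, as a fitted value that depends on the prior count, 9.21 for Ccr7.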

How the results depend on the processing

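Leaving out each library in turn called 6 to 13 members between sorts (9 with all libraries), 2 to 10 between routes in GFP+ (10 with all) and 2 to 6 in the interaction (5 with all). In GFP+, 2 remained (Ccr2 and Ccl9) without the GFP+ i.c.v. female, 5 without the GFP+ i.v. male or the GFP+ i.c.v. male and 6 without either GFP- i.c.v. library. In the interaction, 2 were called without the GFP- i.v. male, the GFP- i.c.v. female or either GFP+ i.c.v. library and 3 without the GFP- i.v. female or the GFP+ i.v. male. The lone library of a group was assumed to vary like the others. Between sorts, the i.v. mice alone gave 15 calls. Between routes in GFP+, 6 were called with cells thinned to 500 UMIs, 6 without blood and monocyte marker cells and 5 with the 4 GFP+ libraries alone. In GFP-, DESeq2 and the fit without a filter each called 1, Cxcl2. In the interaction, DESeq2 and no filter each called 10, the stricter cell filter 2, thinned cells 3, and the fits without blood marker cells, with or without monocyte marker cells, 2 each. With the mouse as a replicate block, 9 members were called between sorts (Ccr6 lost, Cxcl12 gained) and 7 in the interaction (Cxcl16 and Ccl7 gained), and the block changed no other call. With library sizes alone the higher calls over all genes between sorts fell from 51.1% to 16.8% of calls, and 12 members were called, the 9 with Ccl4, Ccl25 and Cx3cr1 lower. No called fold change turned its direction in any alternative in which the member was tested. Cxcr2 was not tested without blood and monocyte marker cells, where its GFP+ i.v. values were no longer the higher. The cause of these changes was not tested.

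With 2 markers in place of 3, the mean share of UMIs in marker cells was 91.8% in place of 74.4% for Ccl17 (dendritic, GFP+ i.v.) and 92.0% in place of 83.8% for Pf4 (CAM, 8 libraries). The mean share of GFP+ cells with a Ccl4 UMI was 19.2% at 500 UMIs, 26.6% at 1000 and 34.8% at own depth, and that of GFP- cells 52.4% and, at own depth, 70.0%.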

Other observations

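Pairs of neighboring ligands were compared cell by cell. After thinning to 500 UMIs, Ccl4 was seen in 33.9 to 41.7% of cells with Ccl3 and 7.90 to 22.2% of cells without it in the GFP+ libraries, and in 49.0 to 70.7% of cells with Ccl3 and 28.4 to 54.4% of cells without it in the GFP- libraries. Ccl7 was seen in 3.49 to 17.3% of cells with Ccl2 and 0.750 to 2.10% of cells without it in the GFP+ libraries and in 4.17 to 6.19% of cells with Ccl2 and 0.853 to 2.24% of cells without it in the GFP- libraries. For Ccl9 and its neighbor Ccl6 the GFP- libraries gave 4.00 to 8.82% of cells with Ccl9 and 3.18 to 4.26% of cells without it as the shares with Ccl6. Cells of a library share its depth and free RNA, so these shares are descriptions with no test.

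The 15 immediate-early genes, which rise when tissue is dissociated by enzymes, summed to 19202 to 23836 CPM in the GFP+ libraries, 21349.9 to 26929 CPM in the GFP- libraries, 27358 CPM in the naive microglia sort and 11056 CPM in blood. Their part in the levels of Ccl3, Ccl4 and Cxcl2 was not tested.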
